A study of Mus musculus with 8 samples.

Results

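The untreated macrophages of this series were compared after 48 h and after 3.5 h of culture. They were read in the red (Cy5) channel of 8 Agilent two-colour arrays, 4 arrays at 48 h and 4 at 3.5 h, which are all 8 arrays of the series. The green (Cy3) channel of each array held cells given the secreted protein LECT2 (leukocyte cell-derived chemotaxin 2) at 0.5 or 5 µg/ml and is not analysed here. Per the labels the cells were isolated from the peritoneum of mice, with no strain, age or genotype given, and were plated in low glucose medium with 20% serum and 0 µg/ml LECT2. Each time was covered by 2 independent experiments on different mice, numbered as replicates 1 and 2, and each experiment was read on 2 arrays, one beside each dose. The 2 arrays of an experiment were averaged, so each time has 2 values (n = 2), and no freshly isolated cells were compared. For the early time the sample titles have 3.5 h, followed here, where the channels have 3 h.

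Resident peritoneal macrophages are long-lived phagocytes that seed the abdominal cavity before birth and depend on the transcription factor GATA6, which local retinoic acid maintains. Taken out of the cavity and plated, they adhere, spread and lose contact with those signals. The peritoneal fluid they come from also holds B cells, T and NK cells, mast cells and eosinophils, and its lining sheds mesothelial cells.

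The names of the scanner files conflict with the deposited value columns, and the time of each array was taken from the column its log ratio matched best. The 4 columns of 48 h followed a file at r = 1.000. Those of 3.5 h followed one at r = 0.994, 0.978 and 0.973, and the 3.5 h array of experiment 1 beside the low dose at only 0.779, with 0.767 for the next best. Only 1 of 8 files is recorded under the sample it matched, namely that weakly matched one. Under this match one slide holds all 4 arrays of 48 h and the other all 4 of 3.5 h, so time and slide cannot be told apart. In the Cy5 channel the 2 arrays of one experiment and time correlated at r = 0.977 to 0.993, arrays of one time and different experiments at 0.962 to 0.982, and arrays of different times at 0.922 to 0.967. Of the noncontrol spots 63.6% to 82.3% were well above background in Cy5. That Cy5 held the untreated cells rests on the labels, which give the same dye on every array.

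Of 25810 genes tested, 1353 were higher at 48 h (5.24%) and 1182 lower (4.58%), together 9.82%. The test was limma with Benjamini-Hochberg adjustment over all genes at 0.05, and "higher", "lower", "rose" and "fell" below mean that a gene passed it. The median log2 difference of all genes was 0.03, with a median SE of 0.30. Each gene was read by its brightest probe. Of 243 higher genes with other kept probes, 70 had 1 or more of opposite sign, and of 170 such lower genes 30 did. The median log2 difference of those other probes was 0.53 for the higher and -0.76 for the lower genes. For 37% of all genes the 4 arrays of 48 h lay entirely above or below the 4 of 3.5 h. Among the calls this held for 1302 of the higher and 1172 of the lower genes, so such a separation adds little to a call. With the experiment as a block 2564 genes were higher and 2179 lower, including all 2535 of the calls above. In that fit limma gave all genes the same variance (infinite prior degrees of freedom). Its calls, here and in the lists below, therefore follow the size of the difference and not the spread of each gene. With 2 values a time the number of calls moved with single samples: 0 and 0 were higher and lower without 48 h replicate 1, 146 and 209 without 48 h replicate 2, 1353 and 962 without 3.5 h replicate 1, and 3032 and 2563 without 3.5 h replicate 2. With the files under their recorded names 0 genes were called. Without the weakly matched array 1400 were higher and 1180 lower, of which 1204 and 1076 were among the calls above. The higher genes made up 53.4% of the calls after quantile scaling, 63.6% after scaling to the 75th percentile, where the median of all genes was 0.19, and 42.8% after median scaling.

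**Figure D1:**
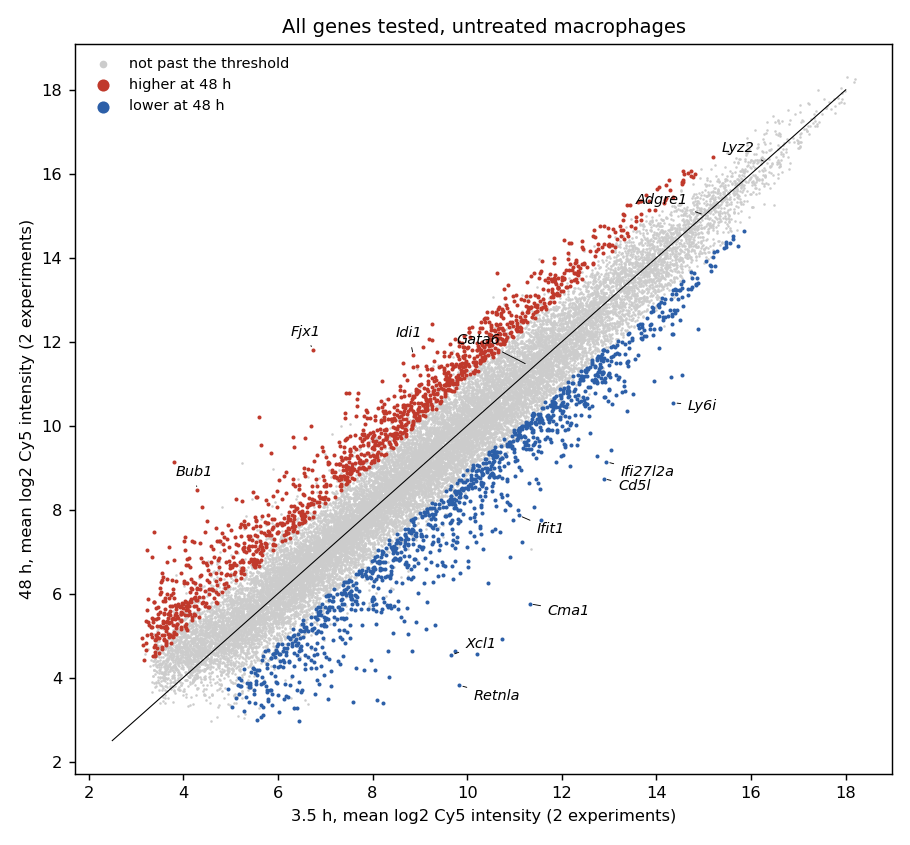
Mean log2 Cy5 intensity of each gene at 48 h (vertical axis) against 3.5 h (horizontal axis), over 2 experiments, with the line of equal values. The 1353 genes higher at 48 h are red and the 1182 lower are blue; the pan-macrophage genes Adgre1 and Lyz2 and the identity factor Gata6 lie by the line.

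The defining genes of the cell type were bright at both times. Levels here and below are log2 Cy5 intensities after quantile scaling, experiment 1 before experiment 2, and differences are 48 h minus 3.5 h ± SE. Adgre1, a surface receptor used as a general marker of mouse macrophages, read 14.92 and 15.12 at 48 h, against 14.87 and 15.17 at 3.5 h (difference -0.00 ± 0.29, adjusted p = 0.997, 7 of 8 arrays; a second probe was at 0.37). Lyz2, lysozyme of myeloid cells, read 16.10 and 16.42 at 48 h, against 16.30 and 16.36 at 3.5 h (7 of 8 arrays). The levels of both genes overlapped between times. Csf1r, the receptor for the macrophage growth factor CSF1, read 14.82 and 15.04 at 48 h, against 15.63 and 15.42 at 3.5 h (-0.59 ± 0.28, adjusted p = 0.21). The 2 other probes for Csf1r were at -0.17 and 0.06. Gata6 read 11.50 and 11.38 at 48 h, against 11.27 and 11.32 at 3.5 h, a difference of 0.15 ± 0.27 that did not pass the test (adjusted p = 0.765).

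Of 28 identity genes of resident peritoneal macrophages tested, 3 fell and 0 rose, with a median of -0.21. The share that fell was above the 4.58% of all genes, and the share that rose was below the 5.24% of all genes. With the experiment as a block 6 fell. Cd5l, a secreted scavenger receptor protein that macrophages make as an inhibitor of cell death, read 9.95 and 7.53 at 48 h, against 13.76 and 12.01 at 3.5 h, a 17.7-fold fall (-4.15 ± 0.80, adjusted p = 0.0227). Cxcl13, the chemokine that draws B cells into the peritoneal cavity, read 8.99 and 10.66 at 48 h, against 12.53 and 12.64 at 3.5 h (-2.77 ± 0.50, adjusted p = 0.0198). Timd4, a phosphatidylserine receptor for the uptake of dying cells, read 10.87 and 11.18 at 48 h, against 12.76 and 12.74 at 3.5 h (-1.72 ± 0.28, adjusted p = 0.0167). In each of the 3 genes every array of 48 h lay below every array of 3.5 h, as in 1172 of the 1182 genes that fell. The summed level of the 28 genes was 19.17 and 19.39 at 48 h, against 19.35 and 19.39 at 3.5 h.

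**Figure D2:**
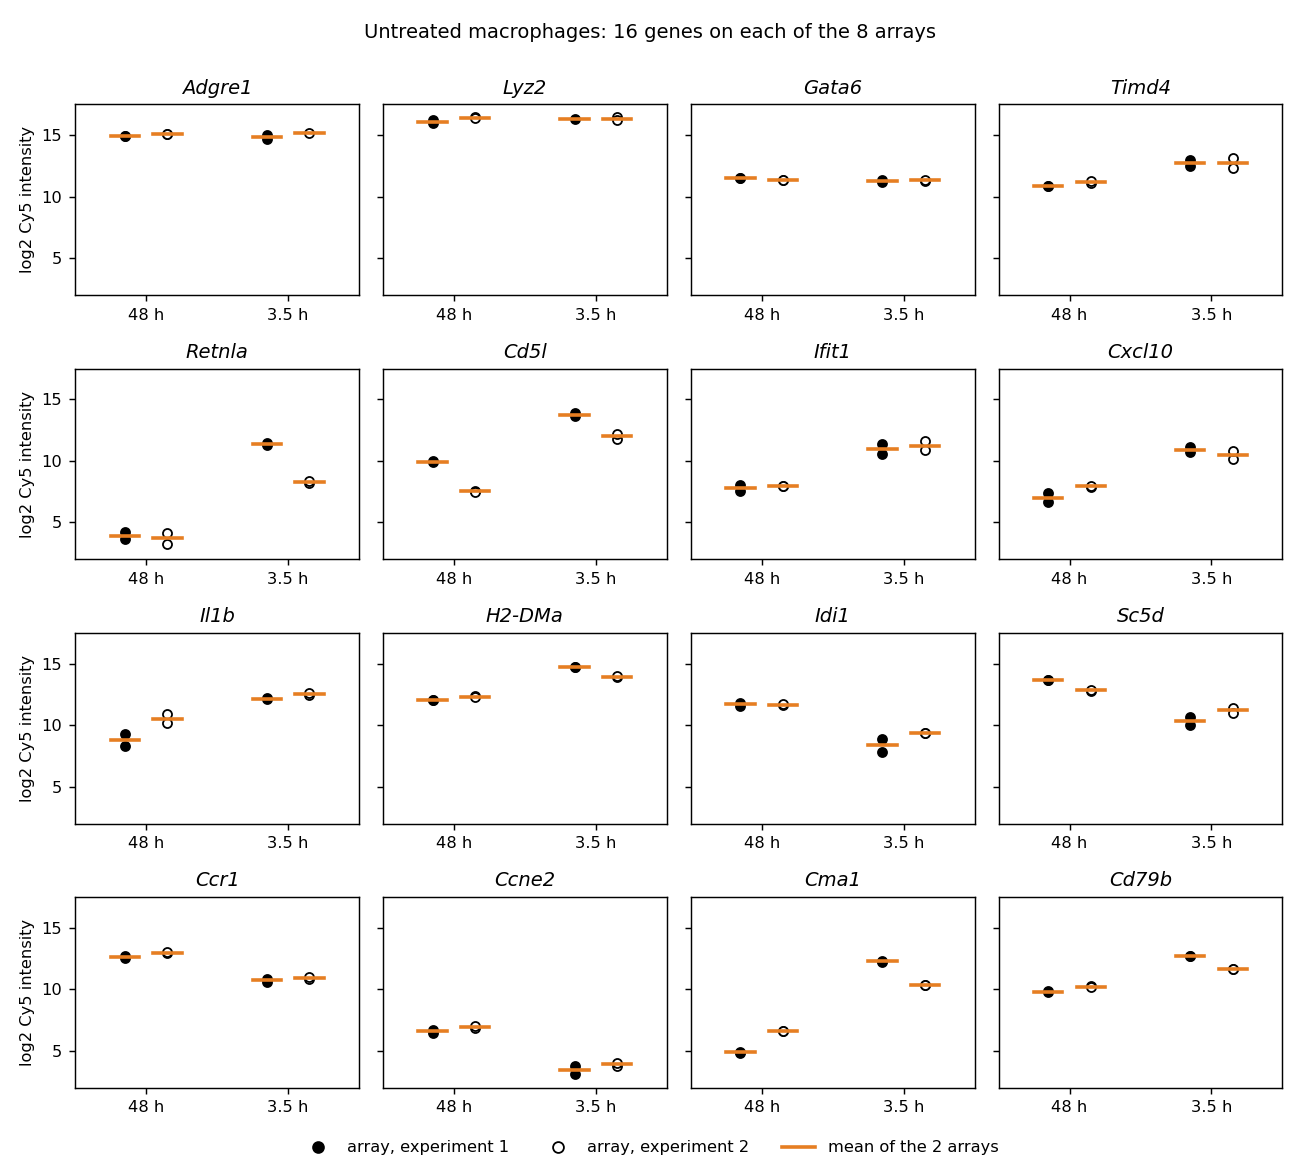
Log2 Cy5 intensity (vertical axis) of 16 genes on each array at 48 h (left in each panel) and 3.5 h (right). Filled points are experiment 1, open points experiment 2, and bars the mean of the 2 arrays of an experiment; an outlier spot is left out for Adgre1 and for Lyz2. Adgre1, Lyz2 and Gata6 overlap between times, and the other 13 genes do not.

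Genes induced by interferon had the most falls of the 33 lists. Of 29 tested, 17 fell and 1 rose, with a median log2 difference of -1.32; among all genes 4.58% fell and the median was 0.03. The same numbers, 17 and 1, were called with the experiment as a block and without the weakly matched array, and 8 and 0 without 48 h replicate 2. Ifit1, an antiviral protein that binds foreign RNA ends, read 8.01, 7.55, 7.94 and 7.95 on the 4 arrays of 48 h, against 10.57, 11.34, 10.86 and 11.60 on those of 3.5 h. Each array of 48 h lay below each of 3.5 h, and Ifit1 differed by -3.23 ± 0.28 (9.37-fold lower, adjusted p = 0.0065). Its neighbour in the same family, Ifit3, read 8.36 and 7.78 at 48 h, against 11.50 and 11.32 at 3.5 h (-3.35 ± 0.31, adjusted p = 0.00691). Oas3, an enzyme that answers double-stranded RNA by making 2′-5′ oligoadenylate, read 6.46 and 6.51 at 48 h, against 9.90 and 9.80 at 3.5 h (-3.37 ± 0.27, adjusted p = 0.00625). Oasl1, a translational inhibitor of the interferon regulator Irf7, fell by 3.13 ± 0.29 (adjusted p = 0.00691). The one gene of the list that rose, Ifi204, a DNA sensor, read 13.08 and 12.80 at 48 h, against 11.55 and 11.94 at 3.5 h (1.20 ± 0.30, adjusted p = 0.044); it was named after its value was seen.

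Factors activated by interferon bind a promoter element made of a pair of TTTC blocks, and the stretches below show it for 4 of the genes that fell. They are RefSeq promoter sequence (build GRCm38.p6), 5′ to 3′ on the gene's own strand, with each match to TTTCNNTTTC, or to GAAANNGAAA on the other strand, in capitals. Ifit1 lies at chr19:34640760-34640838 on the plus strand, Ifit3 at chr19:34583348-34583441 on the plus strand, Oas3 at chr5:120777700-120777759 on the minus strand and Cxcl10, a chemokine described next, at chr5:92349068-92349127 on the minus strand.
Ifit1: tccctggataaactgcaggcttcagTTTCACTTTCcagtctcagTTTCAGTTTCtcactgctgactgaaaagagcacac
Ifit3: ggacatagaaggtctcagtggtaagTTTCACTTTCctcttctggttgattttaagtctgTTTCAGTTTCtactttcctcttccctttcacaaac
Oas3: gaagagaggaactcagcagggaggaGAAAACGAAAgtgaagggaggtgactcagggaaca
Cxcl10: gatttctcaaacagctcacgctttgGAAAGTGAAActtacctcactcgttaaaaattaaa
Ifit1 and Ifit3 each hold 2 matches and the other 2 genes 1 each, between 250 bases before and 50 after the start of transcription. Of the 17 interferon genes that fell, 10 hold a match in that window (58.8%), against 3.99% of all 27025 genes with a promoter sequence. Of the 24 tested members with a sequence, whether they fell or not, 15 hold it (62.5%). Over all genes with a promoter that fell, 39 of 611 hold it (6.38%), and of those that rose 30 of 738 (4.07%). Of the 6 chemokines that fell and have a sequence, 1 holds it, Cxcl10. A match is a description of these letters and was chosen as a motif after the data were seen.

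Of 23 chemokines tested 10 fell and 0 rose, with a median of -1.18, and 8 fell without 48 h replicate 2. Their summed level was 17.10 and 17.92 at 48 h, against 17.70 and 17.95 at 3.5 h, and so overlapped between times. Cxcl10, an interferon-induced attractant of T cells, read 7.01 and 7.94 at 48 h, against 10.90 and 10.49 at 3.5 h (-3.22 ± 0.37, adjusted p = 0.00907). Cxcl9, which acts on the same receptor, read 8.18 and 8.01 at 48 h, against 10.88 and 10.34 at 3.5 h (-2.52 ± 0.30, adjusted p = 0.00951). Cxcl2, an attractant of neutrophils, spread more: 8.56 and 10.53 at 48 h, against 11.63 and 12.48 at 3.5 h (-2.51 ± 0.60, adjusted p = 0.0404). Ccl12, an attractant of monocytes, fell by 2.38 ± 0.32 (adjusted p = 0.0113) to a signal well above background on 1 of 4 arrays. Among 14 receptors for attractants 3 rose and 3 fell with the experiment as a block. In the unblocked fit 1 rose (7.14%, against 5.24% of all genes) and 0 fell. The one was Ccr1, a receptor for several CC chemokines, which read 12.68, 12.55, 12.96 and 13.03 on the arrays of 48 h, against 10.84, 10.62, 10.84 and 11.05 on those of 3.5 h (1.97 ± 0.29, adjusted p = 0.0136).

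Of 24 cytokines and growth factors, 5 fell and 1 rose (20.8% and 4.17%, against 4.58% and 5.24% of all genes). Their median was -0.37, and with the experiment as a block 8 fell and 2 rose. Il1b, the secreted interleukin 1 of activated macrophages, read 8.82 and 10.54 at 48 h, against 12.17 and 12.50 at 3.5 h (-2.65 ± 0.51, adjusted p = 0.0234). Tnf, the prototype inflammatory cytokine, read 9.87 and 10.53 at 48 h, against 11.62 and 11.92 at 3.5 h (-1.57 ± 0.33, adjusted p = 0.0276). Il18, which is cut to its active form by the same protease as interleukin 1 beta, fell by 1.58 ± 0.37, and the neutrophil growth factor Csf3 by 1.58 ± 0.40, with 3 of 4 arrays of 48 h well above background for Csf3. Il12a, a subunit of interleukin 12, was not well above background on any array of 48 h and was at least 4.04-fold lower there. A fold given as "at least" here and below sets the dim time to the higher of its own signal and the dimmest signal well above background on that array. The gene that rose was Vegfa, a growth factor for blood vessels, at 13.52 and 13.48 at 48 h, against 12.30 and 12.55 at 3.5 h (1.08 ± 0.28, adjusted p = 0.0486); a second probe for it was at -0.0544, and it was named after its value was seen.

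Of 21 genes for antigen processing and MHC, the molecules that show peptides to T cells, 6 fell and 0 rose. The share that fell was 28.6%, against 4.58% of all genes. A difference below 0 was seen in 19, and with the experiment as a block 12 fell. H2-Aa, the alpha chain of the class II molecule I-A, read 14.22 and 14.33 at 48 h, against 15.94 and 15.50 at 3.5 h (-1.44 ± 0.29, adjusted p = 0.0265). H2-Ab1, its beta chain, fell by 1.46 ± 0.32. H2-DMa, part of the exchanger that loads peptides on class II, read 12.05 and 12.32 at 48 h, against 14.74 and 13.93 at 3.5 h (-2.16 ± 0.34, adjusted p = 0.0156), and H2-Oa, part of the inhibitor of that exchanger, fell by 2.42 ± 0.35. B cells and dendritic cells carry class II too, and members of their marker lists fell as given further on; their part in this fall was not tested.

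**Figure D3:**
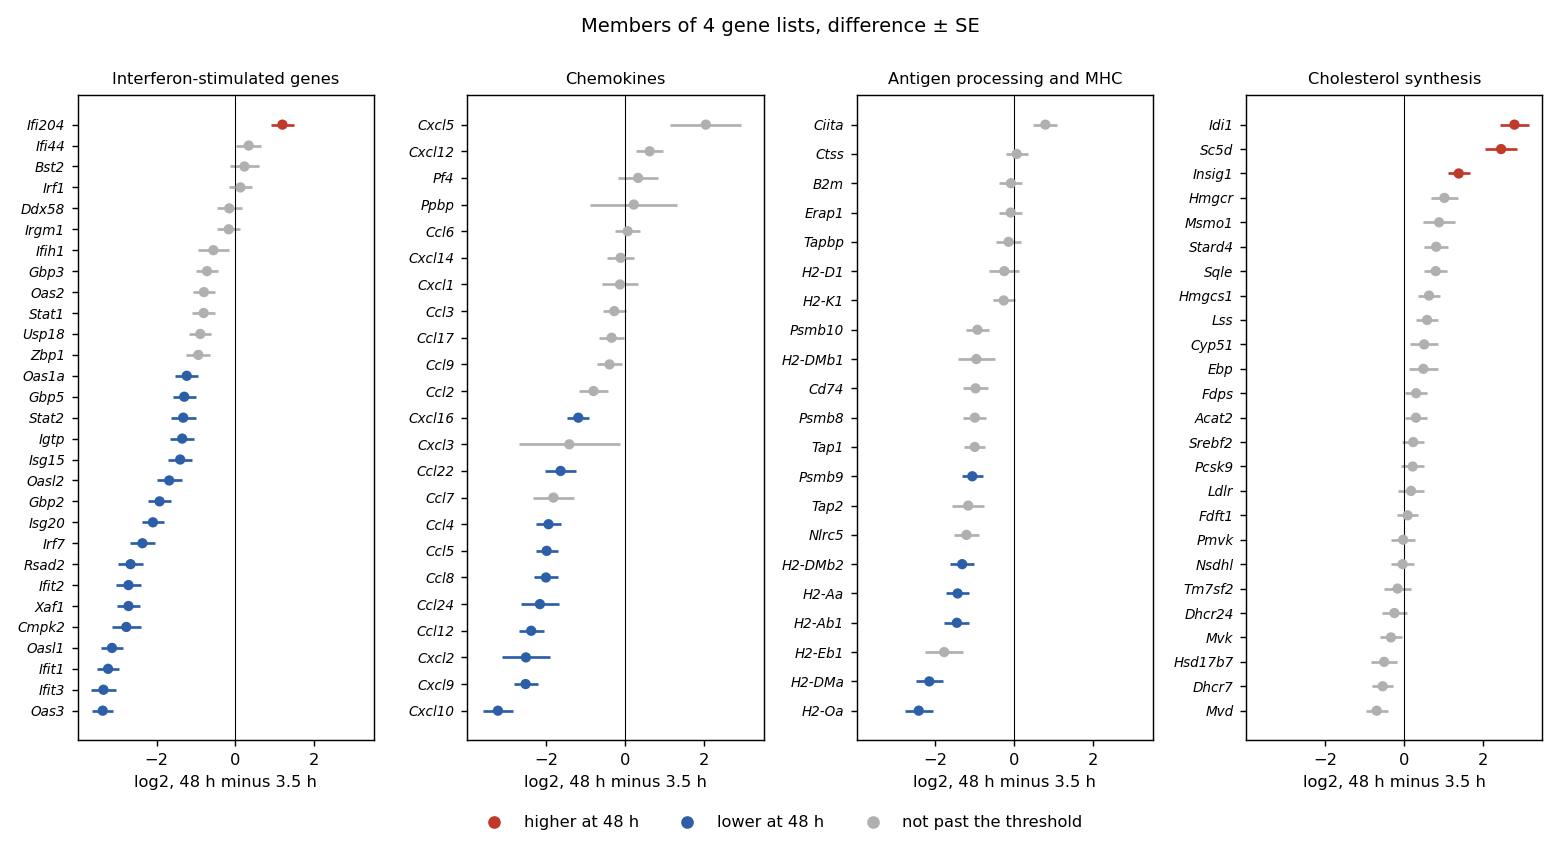
Log2 difference, 48 h minus 3.5 h, with its SE (horizontal axis) for every tested member of 4 gene lists (rows). Points are red where a gene rose, blue where it fell and grey where it did not pass the test. Of the interferon-stimulated genes 17 of 29 are blue and 1 is red, of the chemokines 10 of 23 are blue, of the antigen genes 6 of 21 are blue, and of the cholesterol synthesis genes 3 of 25 are red.

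Of 15 complement and coagulation genes 3 fell and 1 rose (20% and 6.67%, against 4.58% and 5.24% of all genes). Their median was -0.19, and with the experiment as a block 5 fell. Cfb, factor B of the alternative pathway, read 11.57 and 13.04 at 48 h, against 14.90 and 14.85 at 3.5 h (-2.57 ± 0.46, adjusted p = 0.0195). C2, which has the matching role in the classical pathway, fell by 1.84 ± 0.28, and Serping1, the inhibitor of the C1 proteases, by 2.21 ± 0.48.

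Of 15 genes linked to alternative activation, the state that interleukin 4 induces, 5 fell (33.3%, against 4.58% of all genes) and 0 rose. Their median was -0.70, and with the experiment as a block 6 fell and 1 rose. Retnla, a secreted resistin-like protein, read 4.19, 3.65, 3.25 and 4.18 on the 4 arrays of 48 h, none of them well above background, against 11.49, 11.30, 8.19 and 8.37 on those of 3.5 h. It was at least 32.5-fold lower at 48 h (adjusted p = 0.0118), and at 3.5 h both arrays of experiment 1 stood above both of experiment 2. Ear2, a ribonuclease shared with eosinophils, was at least 5.17-fold lower (adjusted p = 0.0168). Ccl24, an attractant of eosinophils, fell by 2.16 ± 0.49 and Pdcd1lg2, a ligand of the inhibitory receptor PD-1, by 2.06 ± 0.31. Arg1, the arginase of this state, read 13.85 and 15.69 at 48 h, against 14.66 and 15.61 at 3.5 h, and did not pass the test (-0.36 ± 0.59, adjusted p = 0.726). Among 12 enzymes for nitric oxide, arginine, itaconate and prostaglandins 1 fell (8.33%, against 4.58% of all genes) and 0 rose. The one was Acod1, which makes itaconate (-2.28 ± 0.41, adjusted p = 0.02). Nos2, the inducible nitric oxide synthase, was at -0.47 ± 0.29 (adjusted p = 0.315). The cyclooxygenase Ptgs2, which rose, is not in this list and is counted with the NF-kB targets below.

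Of 31 immediate early genes, which stimulated cells transcribe within minutes, 5 rose and 3 fell (16.1% and 9.68%, against 5.24% and 4.58% of all genes). Egr1, a zinc finger transcription factor, read 11.58 and 11.73 at 48 h, against 9.50 and 9.74 at 3.5 h (2.03 ± 0.28, adjusted p = 0.0118). Nr4a2, an orphan nuclear receptor, fell by 1.88 ± 0.33, the small Maf factor Maff by 1.75 ± 0.32 and Klf2, a zinc finger factor that restrains inflammatory genes, by 1.57 ± 0.31. Fos, a partner in the AP-1 dimer, was at 10.03 and 11.52 at 48 h, against 11.37 and 11.37 at 3.5 h (adjusted p = 0.434). NF-kB is the transcription factor behind most inflammatory genes. Of 20 of its targets 2 fell and 1 rose (10% and 5%), with 4 lower under the block. Cd40, the receptor through which T cells help macrophages, fell by 2.11 ± 0.35 and its adaptor Traf1 by 1.47 ± 0.31. Ptgs2, the inducible cyclooxygenase, read 10.12 and 10.76 at 48 h, against 7.76 and 8.66 at 3.5 h (2.23 ± 0.39, adjusted p = 0.0187).

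Of 25 genes of cholesterol synthesis 3 rose (12%, against 5.24% of all genes) and 0 fell, with a median of 0.31. Idi1, the isomerase that supplies the branched building blocks, read 11.80, 11.59, 11.61 and 11.69 on the arrays of 48 h, against 7.85, 8.87, 9.35 and 9.38 on those of 3.5 h (2.81 ± 0.37, adjusted p = 0.0108). The times did not overlap, and at 3.5 h experiment 1 was the lower one. Sc5d, a late enzyme of the pathway, read 13.66 and 12.83 at 48 h, against 10.36 and 11.19 at 3.5 h (2.47 ± 0.40, adjusted p = 0.0163). Insig1, a target of the sterol-controlled transcription factor SREBP that feeds back on it, rose by 1.39 ± 0.28. Hmgcs1, the entry enzyme, was 0.64 ± 0.27 and did not pass the test (adjusted p = 0.167). Abcg1, which exports cholesterol from macrophages, read 11.32 and 10.39 at 48 h, against 13.31 and 12.70 at 3.5 h (-2.15 ± 0.39, adjusted p = 0.0198). Cpt1a, the gate of fatty acid entry into mitochondria, fell too (-1.36 ± 0.29), with a second probe for it at -0.41. Abcg1 and Cpt1a were the 2 of 26 genes for lipid uptake, efflux and storage that fell (7.69%, against 4.58% of all genes), and 0 rose.

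Other metabolic lists held few calls. Of 29 lysosomal genes 1 rose and 1 fell (3.45% each, against 5.24% and 4.58% of all genes). They were Atp6v1h, a subunit of the proton pump, at 1.56 ± 0.31, and Ctsk, a collagen-cutting protease, at -3.03 ± 0.58 (adjusted p = 0.0221). Of 25 genes of glycolysis and the hypoxia response 2 fell and 3 rose with the experiment as a block. In the unblocked fit 1 fell (4%, against 4.58% of all genes) and 0 rose. The one was Adm, the vasodilator peptide adrenomedullin, at 6.33 and 7.40 at 48 h, against 10.63 and 11.18 at 3.5 h, a 16.4-fold fall (-4.04 ± 0.40, adjusted p = 0.00757). Of 25 nuclear genes of the respiratory chain 2 rose and 2 fell (8% each), and of 34 cytosolic ribosomal proteins 2 fell (5.88%). The antioxidant and iron genes had 1 rise and 1 fall among 18 (5.56% each).

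Of 28 genes of the unfolded protein and amino acid stress responses 3 rose and 0 fell (median 0.43), and 6 rose with the experiment as a block. Hspa5, the main chaperone of the endoplasmic reticulum, read 14.03 and 14.18 at 48 h, against 11.77 and 12.51 at 3.5 h (1.96 ± 0.33, adjusted p = 0.0175). Pdia4, a protein disulphide isomerase, rose by 1.37 ± 0.28 and the stress transcription factor Atf5 by 1.41 ± 0.32. Among 18 heat shock chaperones 2 rose and 1 fell (11.1% and 5.56%, against 5.24% and 4.58% of all genes). The co-chaperone Dnaja1 rose by 2.07 ± 0.28, although a second probe for it was at -0.0343, and Hsp90aa1, the inducible HSP90, by 1.65 ± 0.30, while Hspa1a, the inducible HSP70, fell by 1.25 ± 0.30.

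Few structural and surface genes passed the test. The tubulins Tuba1a (1.47 ± 0.33) and Tubb2a (1.09 ± 0.28) were the 2 of 22 cytoskeleton genes that rose. Serpinb2, an inhibitor of plasminogen activators that macrophages make when they adhere, was the 1 of 26 matrix, protease and adhesion genes that rose (2.14 ± 0.53, adjusted p = 0.0445). It was not among the calls without the weakly matched array, where 0 genes of that list were called. Of 25 scavenger and phagocytic receptors and their ligands 2 rose: Pros1, which bridges dying cells to phagocytes, by 1.57 ± 0.27 and the collectin Colec12 by 1.61 ± 0.28. The shares that rose were 9.09% of the cytoskeleton, 3.85% of the matrix and 8% of the scavenger genes, near the 5.24% of all genes, and 0 members fell. With the experiment as a block 6, 6 and 3 rose and 1, 2 and 2 fell.

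Of 43 genes of the cell cycle and DNA replication, 5 rose (11.6%, against 5.24% of all genes) and 0 fell, with a median of 0.24. Under the block 8 rose and 1 fell. Bub1, a kinase of the mitotic checkpoint, read 8.49 and 8.44 at 48 h, against 3.47 and 5.13 at 3.5 h, where it was well above background on 1 of 4 arrays (4.17 ± 0.50, adjusted p = 0.00947). Ccne2, the cyclin that opens S phase, read 6.58 and 6.93 at 48 h, against 3.42 and 3.91 at 3.5 h, again well above background on 1 of 4 arrays there (3.09 ± 0.31, adjusted p = 0.00757). Aurkb, a mitotic kinase well above background on 1 of 4 arrays of 3.5 h, rose by 2.19 ± 0.46, Rrm2, a subunit of the enzyme that makes deoxynucleotides, by 2.02 ± 0.45 and Mcm4, part of the replicative helicase, by 1.16 ± 0.30. Mki67, the usual marker of cycling cells, was at 10.13 and 10.04 at 48 h, against 10.03 and 10.82 at 3.5 h (adjusted p = 0.548); a second probe for it was at 0.59. Of 14 cell cycle inhibitors 0 changed. Which cells of the culture carried these transcripts was not measured.

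Markers of other cells moved as well, and in such bulk samples fewer cells of a type and less RNA per cell cannot be told apart. Of 8 mast cell markers tested 2 fell (25%, against 4.58% of all genes) and all 8 were below their 3.5 h mean. With the experiment as a block 6 fell. Cma1, a mast cell chymase, read 4.83, 4.95, 6.65 and 6.61 on the arrays of 48 h, against 12.33, 12.25, 10.32 and 10.38 on those of 3.5 h (-5.56 ± 0.71, adjusted p = 0.0103), with 3 of 4 arrays of 48 h well above background. Cpa3, the mast cell carboxypeptidase, read 3.12 and 6.72 at 48 h, against 11.79 and 9.71 at 3.5 h (-5.83 ± 1.07, adjusted p = 0.0206), and was well above background on 2 of 4 arrays of 48 h. The summed level of the list was 11.33 and 10.86 at 48 h, against 14.18 and 12.57 at 3.5 h; Ms4a2 and Hdc did not pass the filter. At 3.5 h experiment 1 held more of these transcripts than experiment 2, and it was also the higher one for Retnla.

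Of 20 T and NK cell markers 7 fell (35%, against 4.58% of all genes) and 0 rose. Their median was -0.97, and with the experiment as a block 10 fell and 1 rose. Gzmb, a cytotoxic protease, read 2.92 and 5.51 at 48 h, against 7.56 and 7.74 at 3.5 h (-3.43 ± 0.70, adjusted p = 0.0269), with 2 of 4 arrays of 48 h well above background. Cd3d and Cd3g, subunits of the T cell receptor complex, fell by 2.57 ± 0.32 and 2.36 ± 0.41, and the granule protease Gzma by 2.23 ± 0.28. Cd3e, of the same complex, was at -0.27 ± 0.29 (adjusted p = 0.596). The summed level of the list was 14.47 and 13.85 at 48 h, against 14.21 and 14.18 at 3.5 h, and so overlapped between times. The chemokine and interferon gene falls stand beside these, and the part of T and NK cells in them was not tested.

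Of 16 B cell markers 3 fell (18.8%, against 4.58% of all genes) and 0 rose. Their median was -0.66, and with the experiment as a block 6 fell and 1 rose. Among the 3 were the signalling chains of the B cell receptor, Cd79b (-2.15 ± 0.39) and Cd79a (-1.61 ± 0.27). Cd79b read 9.82 and 10.23 at 48 h, against 12.70 and 11.64 at 3.5 h. The summed level of the list was 15.92 and 15.54 at 48 h, against 15.88 and 15.49 at 3.5 h. Of 11 dendritic cell markers 3 fell (27.3%), which were the transcription factors Batf3 (-2.24 ± 0.44), Irf4 (-1.38 ± 0.35) and Irf8 (-1.18 ± 0.31). The summed level of the 11 was 16.20 and 15.92 at 48 h, against 16.07 and 15.75 at 3.5 h. Cd209a, a lectin of dendritic cells, was at 0.30 ± 0.32 (adjusted p = 0.585). Of 7 neutrophil markers 1 fell (14.3%), S100a8 (-1.78 ± 0.34). The summed level of that list was 15.18 and 14.75 at 48 h, against 14.69 and 14.64 at 3.5 h. Of 5 eosinophil markers 0 changed, with a summed level of 11.93 and 10.94 at 48 h, against 11.59 and 11.55 at 3.5 h. Of 4 red cell markers tested 2 fell (50%). Hbb-b2, a beta globin, read 3.84 and 5.43 at 48 h, against 10.98 and 8.51 at 3.5 h (-5.11 ± 0.78, adjusted p = 0.0136). Its 48 h arrays read 3.05 and 4.63 in experiment 1, and 3.04 and 7.82, far apart, in experiment 2. Hba-a1, an alpha globin, fell by 2.89 ± 0.38 (7 of 8 arrays). Hbb-b2 was well above background on 2 of 4 arrays of 48 h, and the 4 red cell markers tested summed to 9.38 and 9.23 at 48 h, against 12.57 and 10.98 at 3.5 h. The markers Ighm, Xcr1, Itgae, Prg2, Ly6g, Ltf, Retnlg, Hbb-b1, Alas2 and Muc16 were not tested.

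Of 16 mesothelial and fibroblast markers 2 rose (12.5%, against 5.24% of all genes) and 0 fell, with a median of 0.69. Under the block 6 rose. Lum, a small matrix proteoglycan of fibroblasts, read 8.35 and 9.08 at 48 h, against 5.62 and 6.41 at 3.5 h (2.70 ± 0.38, adjusted p = 0.0127), with 3 of 4 arrays of 3.5 h well above background. Wt1, a transcription factor of mesothelium, rose by 1.75 ± 0.39, and the mesothelial keratin Krt19 was at -0.28 ± 0.30 (adjusted p = 0.588). The summed level of the list was 16.66 and 17.29 at 48 h, against 14.96 and 16.83 at 3.5 h, so the 3.5 h sample of experiment 1 stood lowest.

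**Figure D4:**
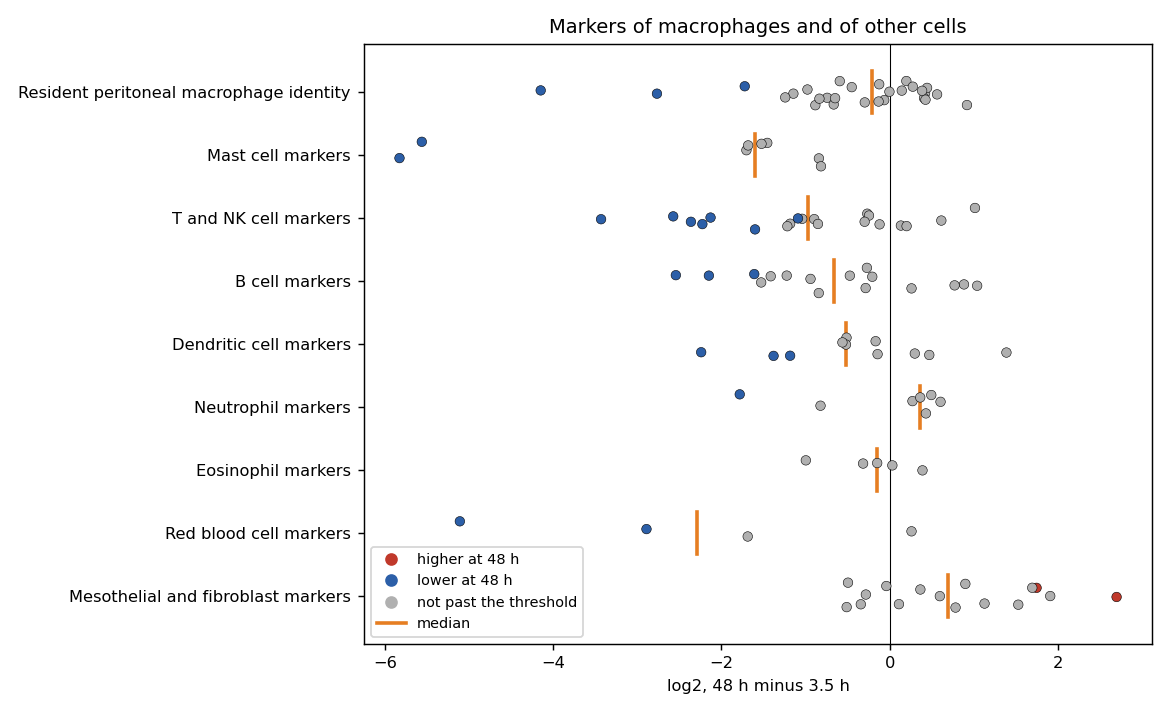
Log2 difference, 48 h minus 3.5 h (horizontal axis), of each tested member of 9 marker lists (rows), red where it rose, blue where it fell and grey where it did not pass the test; orange bars are list medians. The mast cell list lies wholly below 0 with a median of -1.60, and the mesothelial and fibroblast list has a median of 0.69.

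The largest changes outside the lists ran both ways. Fjx1, a relative of the Drosophila growth regulator four-jointed, rose most among genes with a symbol: 11.87 and 11.73 at 48 h, against 6.06 and 7.40 at 3.5 h, a 33.6-fold rise (5.07 ± 0.43, adjusted p = 0.0065, 6 of 8 arrays). Plscr2, of the phospholipid scramblase family, read 10.08 and 10.36 at 48 h, against 4.41 and 6.82 at 3.5 h (4.61 ± 0.66, adjusted p = 0.0133). Also among the 15 largest rises, the basement membrane protein Nid1 rose by 3.29 ± 0.72, the fibroblast growth factor Fgf5 by 3.66 ± 0.73 and the collagen chain Col5a2 by 3.22 ± 0.82. The 2 other probes for Nid1 were at 1.49 and 2.05. At 3.5 h Nid1 was well above background on 3 of 4 arrays, Plscr2 and Fgf5 on 2 and Col5a2 on 1. In each of these 5 genes the 3.5 h sample of experiment 1 was the lowest of the 4 values.

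Among the falls Xcl1, an attractant of cross-presenting dendritic cells that T and NK cells make, read 3.93 and 5.15 at 48 h, against 9.71 and 9.62 at 3.5 h (-5.13 ± 0.41, adjusted p = 0.00625), with 1 of 4 arrays of 48 h well above background. Orm1, an acute phase plasma protein, fell by 4.20 ± 0.48, and Ly6i, a surface protein of monocytes and macrophages, by 3.81 ± 0.57. The interferon-induced genes Ifi27l2a and Gbp8 fell by 3.80 ± 0.29 and 3.70 ± 0.46, Gbp8 to a signal well above background on 2 of 4 arrays. Ifi27l2a read 8.95 and 9.33 at 48 h, against 13.05 and 12.84 at 3.5 h. Olfactory receptor probes appear on both sides. Olfr1257 read 7.86 and 7.10 at 48 h, well above background on 4 of 4 arrays, and was at least 4.51-fold higher there. Olfr847 read 8.50 and 7.67 at 3.5 h, well above background on 4 of 4 arrays, and was at least 9.66-fold lower at 48 h. Neither was well above background on any array of the other time. Globins, Ly6, Gbp, Oas and olfactory genes have near copies, and a probe may read more than one of them.

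**Figure D5:**
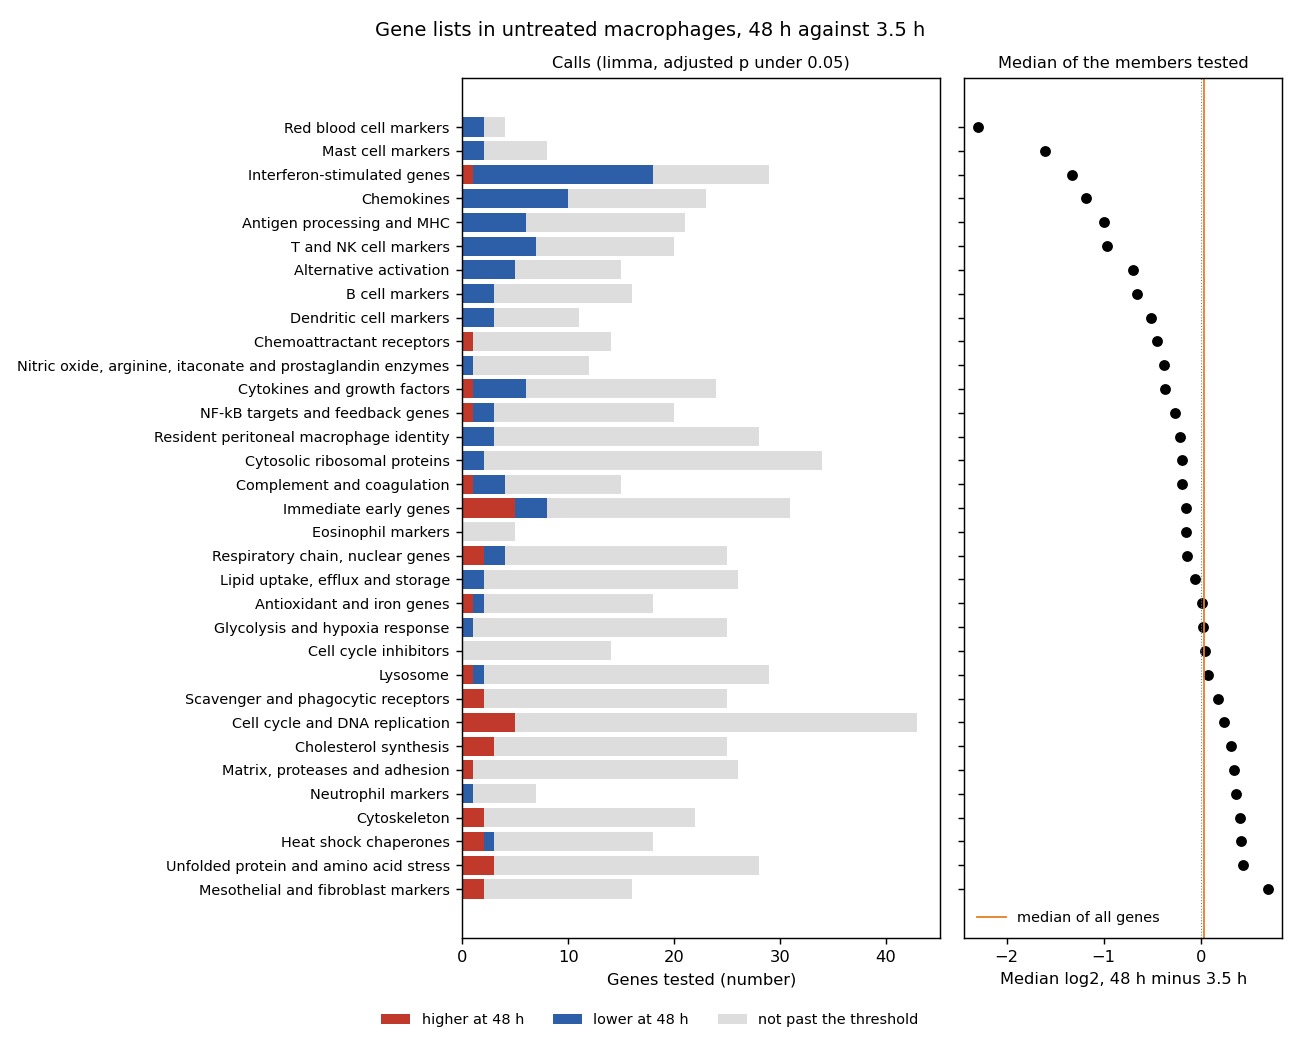
Left, number of tested genes of each of 33 lists (rows) that rose (red), fell (blue) or did not pass the test (grey) at 48 h. Right, median log2 difference of the members tested, with the median of all genes as a line. Interferon-stimulated genes and chemokines have the most falls, 17 and 10.

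Across the 33 lists the counts lay far apart. In the 2 lists named last, 58.6% and 43.5% of the members tested fell, while 2 lists, the cell cycle inhibitors and the eosinophil markers, held 0 calls in the unblocked fit. In it no list had more than 5 rises, a number reached by the immediate early and the cell cycle genes.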

How the data were processed

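The submitters' processing notes name Agilent Feature Extraction 10.7.3.1 for the scans. The deposited log10 ratio of Cy5 over Cy3 is dye-normalised within the array, per the file headers. The deposited processed intensity of Cy5 is background-subtracted and dye-normalised against the Cy3 channel of the same array, so it also depends on the LECT2 sample beside it. In the deposited value table the 48 h columns equal the files' Cy5 over Cy3 ratios in log2 units for 86.8% to 88.9% of probes (within 0.01) and the 3.5 h columns for 2.69% to 8.96%, so the scale of the 3.5 h columns is unsettled; the table served only to assign each file its sample (correlation over probes well above background in both channels). How the authors made it is not given in the sources used here. Of 44397 spots, 43020 are for 39429 probes, of which 26412 were named through RefSeq's gene list (GRCm38.p6; names only, since the array annotation is on mm9). Processed Cy5 intensity was log2 transformed and quantile scaled without control and outlier spots. Probes well above background on at least 2 of 8 arrays were kept, with the brightest per gene, and 2 of 25812 genes had no value at one of the times.

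The 2 arrays of a time and experiment were averaged, and 48 h minus 3.5 h was fitted with limma 3.58.1 in R 4.3.3 on 2 residual degrees of freedom. The replicate numbers name the 2 experiments on different mice, per the labels, so the block is a paired fit. The calls rest on the unblocked fit, which ignores that pairing, because the protocols in the labels name no paired test. Deviations of replicates 1 and 2 correlated between times at r = 0.108. Precision is limited by how few arrays there are.

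The members, the 33 gene lists (696 genes) and the tests were chosen with earlier results of these data known. Named genes are the 15 largest changes in each direction, up to 4 called members of a list and a fixed set, not all of them printed; a few items are not reported here.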

Additional observations from a re-analysis of the deposited data

How the results depend on the processing

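The counts higher and lower (1353 and 1182) were 0 and 0 with the recorded sample of each file (128 genes at an unadjusted p under 0.05 in limma, or 1414 and again 0 calls with the replicate block), 0 and 0 on the low dose partner arrays alone (5787), and 0 and 0 with no filter on dim probes (7938 of 32538 genes tested). They were 651 and 753 on the high dose partner arrays alone, 2235 and 2168 with a trended robust variance, 2564 and 2179 with the replicate block, and 2258 and 2548 with 8 arrays and a random block. The lower count was 758 after scaling to the 75th percentile and 1923 after median scaling. Leaving out 1 replicate gave 0 to 3032 higher and 0 to 2563 lower; the lone sample of a time was then assumed to vary like the other time. No gene was called in opposite directions in any of these settings, which could not happen in those with 0 calls. The cause of these changes was not tested. Of the 90 called genes chosen for naming, all kept their direction in the settings that use the match by value, and 85 stayed called without the weakly matched array, 38 without 48 h replicate 2 and 0 without 48 h replicate 1. Under the recorded names, with and without the block, 33 kept their direction and 57 turned, none of them called, with log2 differences of Cd5l 0.19, Cxcl13 0.35, Timd4 0.0349, Ifit1 0.26, Ifit3 0.29, Oasl1 0.19, Cxcl9 0.023, Cxcl2 0.10, Ccl12 0.0689, Ccr1 -0.0536, Il12a 0.0947, Il1b 0.0744, Csf3 0.71, Il18 0.13, Vegfa -0.15, H2-DMa 0.0417, Ear2 0.14, Ccl24 0.0993, Serping1 0.0596, C2 0.00397, Cd40 0.0994, Traf1 0.0547, Egr1 -0.061, Maff 0.0443, Sc5d -0.26, Insig1 -0.0733, Abcg1 0.17, Cpt1a 0.0599, Ctsk 0.12, Adm 0.15, Pdia4 -0.0700, Bub1 -0.22, Ccne2 -0.22, Aurkb -0.26, Rrm2 -0.15, Mcm4 -0.0541, Serpinb2 -0.25, Colec12 -0.0889, Cpa3 0.0397, Cma1 0.0355, Gzmb 0.0975, Gzma 0.29, Cd79a 0.13, S100a8 0.0904, Hba-a1 0.0936, Lum -0.63, Wt1 -0.14, Fjx1 -0.42, Plscr2 -0.71, Fgf5 -0.25, Col5a2 -0.0459, Xcl1 0.43, Orm1 0.21, Ifi27l2a 0.11, Gbp8 0.45, Olfr1257 -0.0738, Olfr847 0.39. The direction of time thus rests on the match of files to columns, slide and time cannot be told apart, and 2 values a time limit the precision.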
